A study of Mus musculus with 6 samples.

Results

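The subunits followed here are 7 genes of the GABA-A receptor, Gabra2, Gabra3, Gabra4, Gabra5, Gabrb1, Gabrb2 and Gabrg1, taken by gene name from the 37620 genes in the count files. All 7 were found, and all 7 reached the level required for testing. They were measured as ribosome-bound mRNA from the dentate gyrus of mice carrying the GliCreERT2 and Ribotag (Rpl22HA f/+) alleles, in which Cre recombination makes the cell tag its ribosomes with HA, so that an anti-HA antibody pulls down the ribosomes together with the messages they carry. The study compared 3 samples from Klf9 +/+ mice with 3 from Klf9 f/f mice to learn which messages change when the transcription factor Klf9 is removed from radial-glial neural stem cells (RGLs). Both genotypes carried the Cre and the tag and received tamoxifen at 2 to 3 months of age, in 3 injections of 250 mg/kg given 12 hr apart, and tissue was taken 4 days after the last one. Each sample pooled 6 dentate gyri from 3 mice. The Cre driver labels astrocytes as well as RGLs, and in such bulk samples fewer cells of a type and less RNA per cell cannot be told apart.

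GABA-A receptors are chloride channels assembled from several subunits around a central pore, most often from alpha, beta and gamma subunits. GABA binds between a beta and an alpha subunit, benzodiazepines bind between an alpha and a gamma subunit, and the choice of subunits sets where the receptor sits and how it responds. In the dentate gyrus, RGLs sense GABA released by nearby interneurons, and this tonic signal is known to hold them in quiescence, while astrocytes express GABA-A receptors of their own.

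Counts on genes numbered 27594529 to 58864965 per Klf9 +/+ sample and 21594714 to 66343759 per Klf9 f/f sample. By the names of the libraries, replicates 1 and 2 of either genotype belong to series YTa22 and replicate 3 to series YTa32, the shallower one, and the replicate numbers are running numbers that pair no samples. The YTa22 libraries hold more counts than the read depth per sample stated in the methods, and all were used as deposited. Klf9, the floxed gene, stood at 200.9, 203.9 and 139.0 CPM (counts relative to the TMM-scaled library size) in Klf9 +/+, against 114.3, 121.3 and 120.0 CPM in Klf9 f/f. Its level was lower in every Klf9 f/f sample, with a log2 fold change of -0.59 (SE 0.15, unadjusted p = 0.0032, adjusted p = 0.844 in edgeR's quasi-likelihood test). The log2 difference of Klf9 was -0.78 within YTa22 (2 against 2) and smaller, -0.21, within YTa32 (1 against 1). The 12 astrocyte and radial glia markers (Slc1a3, Gfap, Hopx and others) summed to 12970 to 19390 CPM and the 11 pan-neuronal markers to 1509 to 2264 CPM, so messages of both kinds were present in every sample, and whether the neuronal ones came from tagged cells was not tested.

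Of the 7 subunit genes, 4 form a cluster on chromosome 5 (mm9, positions 71142286 to 72529628), in the order Gabrg1, Gabra2, Gabra4 and Gabrb1, over 1387.3 kb that hold 7 annotated genes. Gabrg1 (71142286 to 71233856), Gabra2 (71352296 to 71487088) and Gabra4 (71960973 to 72049547) are read from the minus strand and Gabrb1 (72091171 to 72529628) from the plus strand, with 118.4, 473.9 and 41.6 kb between neighbours. The other members stand elsewhere in the genome, Gabra5 on the minus strand of chromosome 7 (64663060 to 64765379), Gabrb2 on the plus strand of chromosome 11 (42233259 to 42446092) and Gabra3 on the minus strand of chromosome X (69678020 to 69902187). Counts were made without regard to strand. Gabra5 shares annotated exon bases with the predicted gene Gm9962, and a RefSeq start of Gabrb1 that the counting annotation may lack lies 388 bases inside an exon of Gabra4 on the opposite strand, so the Gabra5, Gabra4 and Gabrb1 counts carry that uncertainty.

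Because Klf9 binds GC-rich DNA, as Krüppel-like factors do, the promoters of the members with the highest genotype fold changes, Gabra2 and Gabrg1, are shown here. Each window runs from 250 bases before to 50 bases after the RefSeq start, printed 5′ to 3′ on the gene's own (minus) strand. The sequences come from the RefSeq promoter table of build GRCm38.p6, and each was found once, without mismatch, in mm9 at chr5:71487039-71487338 for Gabra2 and at chr5:71233807-71234106 for Gabrg1. Capitals mark each match of GGGCGG or CACCC on either strand, and matches of the 2 motifs may overlap.
Gabra2: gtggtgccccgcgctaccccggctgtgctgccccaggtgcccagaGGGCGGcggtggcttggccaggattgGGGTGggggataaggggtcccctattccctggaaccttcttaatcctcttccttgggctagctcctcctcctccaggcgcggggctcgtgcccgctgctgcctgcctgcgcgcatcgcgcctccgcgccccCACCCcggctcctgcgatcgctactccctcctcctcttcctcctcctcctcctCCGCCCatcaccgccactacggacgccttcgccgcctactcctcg
Gabrg1: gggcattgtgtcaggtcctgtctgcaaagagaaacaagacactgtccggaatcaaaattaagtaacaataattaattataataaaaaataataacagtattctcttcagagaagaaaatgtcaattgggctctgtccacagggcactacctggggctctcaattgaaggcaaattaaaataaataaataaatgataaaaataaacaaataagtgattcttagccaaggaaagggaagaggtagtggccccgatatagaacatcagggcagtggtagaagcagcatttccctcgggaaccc
The Gabra2 window held 2 matches of GGGCGG and 2 of CACCC, 25 CG pairs and 70.0% G and C. The Gabrg1 window held no match of either motif, 3 CG pairs and 38.3% G and C. Across 32544 windows of the table the median was 53.0% G and C, and 35.9% held GGGCGG, 57.7% CACCC and 69.6% at least one of them. Of the 11 windows of the 7 members, 7 held at least one. These letters are common in promoters of any kind, and a match in a window is a description of sequence, not a binding site.

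All 7 subunit messages were counted in the pulldown of every sample, but at very different levels. By the study's methods, some homogenate was kept before the pulldown as an input, to determine enrichment of neural stem cells. None of the 6 samples used here is such an input or an untagged control, so carry-over of unbound message was not measured here. To compare genes, levels were taken per length, as TMM-scaled CPM per kb of annotated exon (RPKM), and these depend on where the annotated exons end. Gabrb1 was the highest, with a mean of 49.5 RPKM over the 6 samples (range 35.1 to 59.6), followed by Gabra2 at 29.7 (17.7 to 42.5), Gabra4 at 23.4 (19.7 to 26.6) and Gabra5 at 15.2 (12.9 to 18.4). Gabrg1 at 5.30 RPKM (3.08 to 8.26) and Gabrb2 at 3.76 (3.27 to 4.09) came next, and Gabra3 at 0.200 (0.103 to 0.318) was the lowest. Among all tested genes, Gabrb1 stood at percentile 89.6 of level, Gabra2 at 82.5, Gabra4 at 78.6, Gabra5 at 70.3, Gabrg1 at 46.1, Gabrb2 at 38.8 and Gabra3 at 2.33.

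Most neighbours in this order differed in every sample. Gabrb1 over Gabra2, Gabra4 over Gabra5, Gabra5 over Gabrg1 and Gabrb2 over Gabra3 were each higher in 6 of 6 samples, by 1.71-, 1.54-, 3.10- and 20.3-fold (p = 0.03125 each, the smallest that an exact two-sided sign-flip permutation test over 6 samples can give, adjusted p = 0.0469 over the 6 neighbour pairs). Gabra2 stood above Gabra4 in only 4 of 6 samples (1.23-fold, exact permutation p = 0.25, adjusted p = 0.25), and Gabrg1 above Gabrb2 in 4 of 6 (1.3-fold, exact permutation p = 0.1875, adjusted p = 0.225), so neither pair was separated beyond its spread. In YTa32 the order of Gabra2 and Gabra4 was the opposite of that in YTa22, as described with the library series. The order of the means was the same when the length of the longest transcript was used in place of all exon bases.

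**Figure D1:**
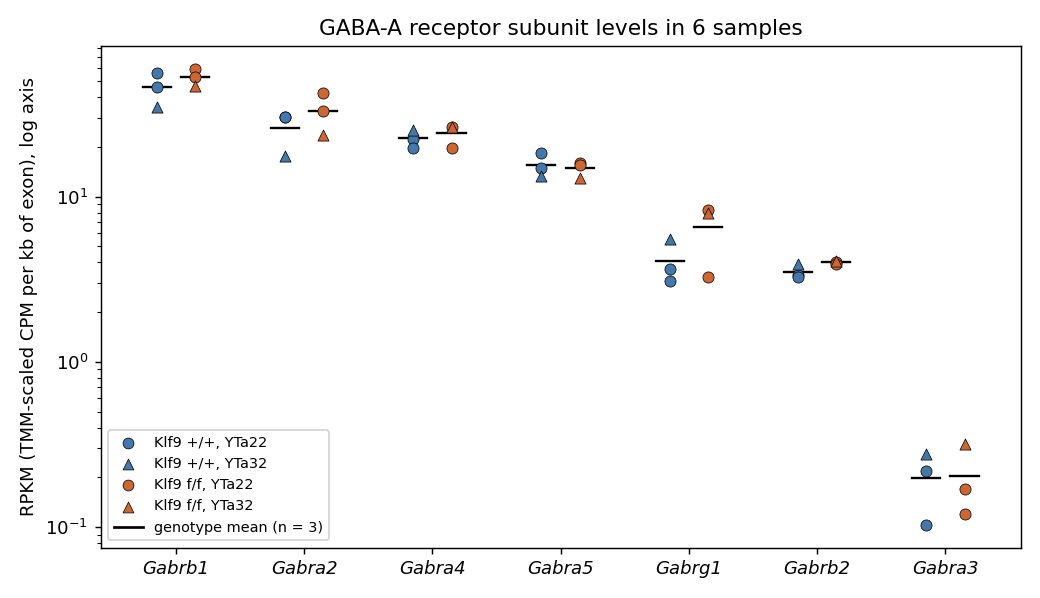
Level of each of the 7 subunits in RPKM (log axis) by genotype, with a point per sample, circles for series YTa22, triangles for series YTa32 and a bar for the mean of the 3 samples. Gabrb1, Gabra2, Gabra4 and Gabra5 lie above 10 RPKM in all samples, whereas Gabra3 stays below 0.318 RPKM, and the genotypes overlap in most genes.

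The genotype comparison asked whether any subunit message was more or less abundant in the pulldown of Klf9 f/f samples. Gabra2 and Gabrg1 were higher in Klf9 f/f by 1.27- and 1.62-fold and passed the threshold that the study's methods set for all genes, a 1.2-fold change with an unadjusted p under 0.05. No member passed in the other direction, and Gabra3, Gabra4, Gabra5, Gabrb1 and Gabrb2 passed in neither. Against these 2 of 7 members called higher, 1.82% of the 15056 genes tested were called higher and 2.5% lower. The members were chosen with earlier results of these data known, so counts of members beside such shares are descriptions and not tests. After Benjamini-Hochberg adjustment over all genes, none of the 7 members had an adjusted p under 0.05 in edgeR's quasi-likelihood test, and neither had any other gene (650 genes, 4.32%, were called at the unadjusted threshold, and DESeq2 gave 39 genes at an adjusted p under 0.05 but no member). At the same adjusted threshold, the quasi-likelihood test with no filter beyond 1 count gave 334 genes, 1 member (Gabrg1) among them. The likelihood-ratio test gave 58 genes but no member. The fold change was above 0 in 5 of the 7 members and in 50.2% of all genes.

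Among the alpha subunits, Gabra2, which marks many synaptic receptors of the forebrain, was counted at 72.7, 72.9 and 42.4 CPM in the Klf9 +/+ samples, in replicate order, against 101.6, 79.6 and 56.6 CPM in the Klf9 f/f samples. Within each library series every Klf9 f/f sample lay above every Klf9 +/+ sample, whereas across the series the groups overlapped, with both YTa32 samples low. The log2 fold change was 0.35 (SE 0.14, 95% interval 0.04 to 0.66, unadjusted p = 0.0319, adjusted p = 1.00 in edgeR's quasi-likelihood test). The difference came to 0.30 on the log2 scale within YTa22 (2 against 2) and to 0.42 within YTa32 (1 against 1, with no replicate check). Without Klf9 f/f replicate 1 the log2 fold change of Gabra2 was 0.25 (unadjusted p = 0.104), and its call was lost whenever any single sample other than Klf9 f/f replicate 2 was left out.

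Gabra4, an alpha subunit typical of extrasynaptic receptors in granule neurons, stood at 92.9, 81.4 and 104.8 CPM in Klf9 +/+, against 109.9, 81.3 and 109.6 CPM in Klf9 f/f. The groups overlapped in YTa22, where the highest and the lowest of the 4 samples were both Klf9 f/f. The log2 fold change of Gabra4 was 0.11 (SE 0.15, 95% interval -0.23 to 0.45, unadjusted p = 0.477), an interval that leaves room for changes in either direction.

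Gabra5, a subunit known for tonic inhibition in the hippocampus, stood at 48.9, 39.7 and 35.4 CPM in Klf9 +/+, against 42.7, 41.3 and 34.2 CPM in Klf9 f/f. Both YTa22 Klf9 f/f samples lay between the 2 Klf9 +/+ samples. Gabra5 had a log2 fold change of -0.07 (SE 0.13, 95% interval -0.37 to 0.24, unadjusted p = 0.626).

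Gabra3, an alpha subunit with few sites of strong expression in the adult forebrain, was close to the limit of detection. It was counted 20, 49 and 33 times in Klf9 +/+ and 31, 33 and 28 times in Klf9 f/f, which corresponds to 0.404, 0.852 and 1.08 CPM and to 0.473, 0.664 and 1.25 CPM. Only the YTa32 samples brought it over the filter of 1 CPM. The genotype fold change could not be fixed at these counts, with a log2 value of -0.04 (SE 0.44, 95% interval -1.02 to 0.95, unadjusted p = 0.933).

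Of the beta subunits, which complete the GABA binding site, Gabrb1 was measured at 174.7, 143.0 and 108.5 CPM in Klf9 +/+, against 184.1, 163.2 and 144.1 CPM in Klf9 f/f. In YTa22 the Klf9 f/f sample was the higher in 3 of 4 pairings of a Klf9 f/f with a Klf9 +/+ sample, and in YTa32 it was higher as well. The fitted log2 fold change of 0.22 did not pass (SE 0.14, 95% interval -0.10 to 0.54, unadjusted p = 0.152), with 0.13 within YTa22 and 0.41 within YTa32.

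Gabrb2 was the least variable member, at 33.1, 32.5 and 39.1 CPM in Klf9 +/+, against 39.9, 38.6 and 40.6 CPM in Klf9 f/f. As with Gabra2, every Klf9 f/f sample lay above every Klf9 +/+ sample of its series, but its log2 fold change of 0.19 did not pass the threshold (SE 0.13, 95% interval -0.09 to 0.48, unadjusted p = 0.164). The gap was 0.26 on the log2 scale in YTa22 and 0.05 in YTa32, where the 2 samples were nearly level. Such separation in both series, with Klf9 f/f above, was seen in these 2 of 7 members and in 7.78% of all genes tested, and separation with Klf9 f/f below in no member and in 5.53% of all genes.

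Gabrg1, a gamma subunit found in some glia and less sensitive to benzodiazepines, had the highest genotype fold change of the 7 and, after Gabra3, the least certain. It stood at 14.7, 17.5 and 26.3 CPM in Klf9 +/+, against 39.4, 15.6 and 38.3 CPM in Klf9 f/f. Klf9 f/f replicates 1 and 3 were the highest of the 6 samples, but Klf9 f/f replicate 2 lay below Klf9 +/+ replicate 2, and the 2 Klf9 f/f samples of YTa22 differed by 1.33 on the log2 scale. Gabrg1 had a log2 fold change of 0.70 (SE 0.29, 95% interval 0.04 to 1.35, unadjusted p = 0.0395, adjusted p = 1.00 in edgeR's quasi-likelihood test), with 0.63 within YTa22 and 0.54 within YTa32. Its adjusted p ranged from 0.0111, when genes with very low counts were kept, to 1.00 over the alternatives run. The size of this change depended on the 2 Klf9 f/f samples of YTa22. The log2 fold change of Gabrg1 was 0.21 (unadjusted p = 0.300) without Klf9 f/f replicate 1 and 0.98 (unadjusted p = 0.00142) without Klf9 f/f replicate 2.

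**Figure D2:**
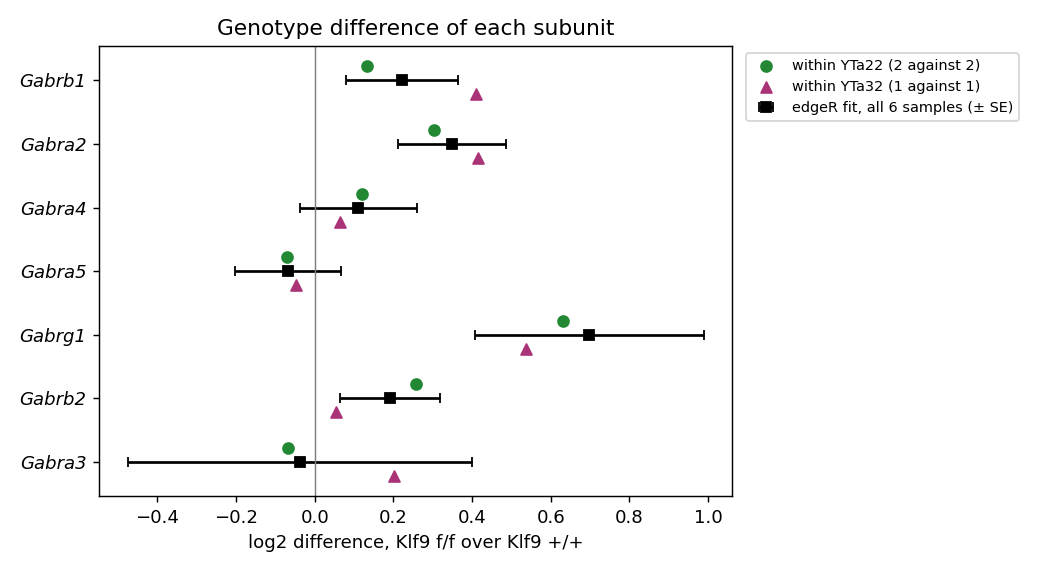
Log2 difference of each subunit, Klf9 f/f over Klf9 +/+, as the edgeR fit over all 6 samples gives it (black squares, bars ± SE) and as the plain difference within YTa22 (circles, 2 against 2) and within YTa32 (triangles, 1 against 1). Gabrg1 at 0.70 and Gabra2 at 0.35 lie farthest to the right, and Gabra3 has the widest bar.

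Astrocyte and radial glia markers differed between the genotypes in the same direction as Gabra2 and Gabrg1, though the order of the libraries was not the same throughout. All 12 astrocyte and radial glia markers had a log2 fold change above 0 (median 0.36, 5 called higher and none lower). Over all genes tested, 50.2% were above 0, 1.82% were called higher and 2.5% lower. No marker of this list had an adjusted p under 0.05 in edgeR's quasi-likelihood test. The summed level of these markers ranged from 12970 to 16240 CPM in Klf9 +/+ and from 16140 to 19390 CPM in Klf9 f/f. Relative to the mean of its series, Klf9 f/f replicate 1 was the highest of YTa22 for these markers (0.37 on the log2 scale), for Gabra2 (0.33) and for Gabrg1 (0.98), while Klf9 f/f replicate 2 was below the mean of its series in all of them (-0.12, -0.02 and -0.35). Klf9 +/+ replicate 1 lay above Klf9 f/f replicate 2 for the markers (0.02). It lay below that sample for Gabra2 (-0.15) and Gabrg1 (-0.44). Oligodendrocyte precursor, oligodendrocyte and microglia markers (6 of each) were also highest of YTa22 in Klf9 f/f replicate 1 (0.36, 0.29 and 0.25). Of these lists 1, 1 and 0 genes were called higher and none lower, beside the same shares of all genes, and none passed after adjustment. Their summed levels were 56.3 to 92.9, 400.2 to 450.5 and 65.2 to 90.6 CPM in the Klf9 +/+ samples. In the Klf9 f/f samples they were 56.9 to 92.6, 369.6 to 496.6 and 62.7 to 89.0 CPM. Over the 6 samples, which share their series mean, the centred levels of Gabra2, Gabrb1, Gabra4 and Gabrg1 followed the astrocyte and radial glia markers with a Pearson's r of 0.914, 0.928, 0.863 and 0.821, given as a description only. Other marker lists were followed too. Gabra4 followed the oligodendrocyte precursor (0.954) and interneuron (0.951) markers at least as closely. Gabra2, Gabrb1 and Gabrg1 followed the interneuron markers with 0.745, 0.804 and 0.777. Gabrb1, Gabrb2 and Gabra2 ran against the choroid plexus markers (-0.877, -0.77 and -0.76), for which only Gabra3 was above 0 (0.326). Gabra4 ran against the granule neuron (-0.923) and pan-neuronal (-0.792) markers, and Gabrb1 ran against the granule neuron markers too (-0.813). Gabra3 alone followed the granule neuron (0.842) and pan-neuronal (0.935) markers.

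When the mean level of these markers entered the fit as a covariate, the log2 fold change of Gabra2 was 0.17 (unadjusted p = 0.389) and that of Gabrg1 was 0.04 (unadjusted p = 0.907), so that neither passed. The markers and the subunits come from the same libraries, and whether more tagged glia or more message per cell lay behind either was not tested. None of the neuronal marker lists had a called gene. None of the 11 pan-neuronal markers (1509 to 2264 CPM in Klf9 +/+, 1539 to 1972 in Klf9 f/f), none of the 6 granule neuron markers (558.9 to 1100 and 489.2 to 795.3 CPM) and none of the 9 interneuron markers (81.2 to 90.9 and 85.0 to 111.1 CPM) was called. Single interneuron markers differed widely in level. Slc32a1, the vesicular GABA transporter, was near the detection limit, at 0.302 to 2.09 CPM. Gad1, the highest of the 9, was at 37.0 to 56.3 CPM.

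**Figure D3:**
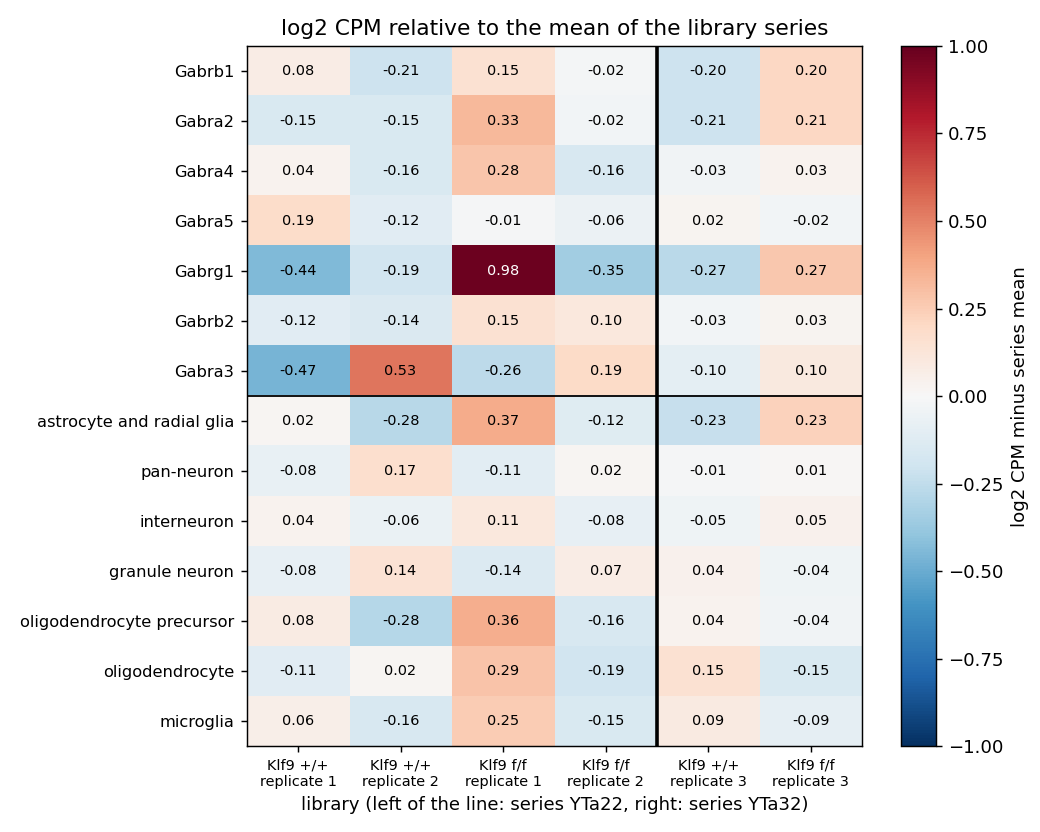
Log2 CPM of the 7 subunits and the mean log2 CPM of the marker lists, each relative to the mean of its library series, with a column per sample and red above and blue below that mean. Klf9 f/f replicate 1 is the highest YTa22 column for Gabrg1 (0.98), Gabra2 (0.33) and the astrocyte and radial glia list (0.37), whereas Klf9 f/f replicate 2 lies at -0.35, -0.02 and -0.12.

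Choroid plexus markers were lower in Klf9 f/f, with 6 of 6 called lower at the unadjusted threshold (median log2 fold change -2.21), beside 2.5% of all genes. All 6 endothelial markers had a log2 fold change below 0, and 2 of them passed (73.5 to 188.2 CPM in Klf9 +/+, 31.3 to 112.2 in Klf9 f/f). No gene of either list had an adjusted p under 0.05 in edgeR's quasi-likelihood test. The choroid plexus total varied widely within the genotypes, at 133.9, 700.2 and 2581 CPM in the Klf9 +/+ samples and 22.6, 19.8 and 396.7 CPM in the Klf9 f/f samples. With the mean of the choroid plexus markers as a covariate the log2 fold change was 0.35 for Gabra2 (SE 0.31, unadjusted p = 0.287). For Gabrg1 it was 1.12 (SE 0.68, unadjusted p = 0.138).

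Some subunits also differed between the library series. Gabra2 was lower in YTa32 than in YTa22, with a log2 difference of -0.73 in the fit over both genotypes, a ratio of 0.604 (SE 0.15, adjusted p = 0.00922 in edgeR's quasi-likelihood test). Gabrb1 had a log2 difference of -0.41 between the series (ratio 0.754, SE 0.15), called at the unadjusted p of 0.0257 but not after adjustment (adjusted p = 0.0732). The other 5 members were not called between the series. Against these 2 of 7 members called lower, 22.4% of all genes were called lower in YTa32 and 20.7% higher (43.1% in all), and beside the 1 member with an adjusted p under 0.05 stood 29.5% of all genes, so a difference between the series was common. The labels do not say what separates the series.

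The genotype difference of each subunit was not found to depend on the series. The interaction of genotype and series had an unadjusted p of 0.449 for Gabrb1 and more for every other member, against 1.53% of all genes called for this interaction at the same threshold. These intervals were wide. For Gabra2 the difference between the series in log2 fold change was 0.10 (95% interval -0.69 to 0.90) and for Gabrg1 it was -0.24 (95% interval -1.59 to 1.12).

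The mixture of alpha subunits was also examined, as the share of each in the summed RPKM of Gabra2, Gabra3, Gabra4 and Gabra5. Gabra2 made up 42.6, 46.6 and 31.3% in Klf9 +/+ replicates 1, 2 and 3 and 49.8, 48.4 and 37.3% in Klf9 f/f replicates 1, 2 and 3. Its share was the largest of the 4 in all YTa22 samples, while Gabra4 held the largest share in both YTa32 samples (44.7% in Klf9 +/+ and 41.8% in Klf9 f/f). The mean share of Gabra2 was 40.1% ± 7.9 and 45.2% ± 6.8 in the Klf9 +/+ and Klf9 f/f samples (SD, n = 3 each). The exact two-sided permutation p over all 6 samples was 0.5, in a test that takes no account of the series. Within each series every Klf9 f/f share lay above every Klf9 +/+ share, which was not tested.

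Gabra5 made up 25.8, 22.9 and 23.5% of the alpha members in Klf9 +/+ and 18.9, 22.6 and 20.3% in Klf9 f/f. Every Klf9 f/f sample thus lay below every Klf9 +/+ sample. The means were 24.1% ± 1.5 and 20.6% ± 1.9 (SD, n = 3 each), and the exact two-sided permutation p of 0.1 is the smallest that 3 against 3 samples allow. The planned share test was that of Gabra2 alone. In the same permutation test the shares of Gabra3 and Gabra4 had p = 0.9 and p = 0.6. The Gabra5 message itself did not pass (log2 fold change -0.07), and a share also moves when the other alpha members do. Of the beta members, Gabrb1 made up 92.6% ± 2.4 of the summed RPKM in Klf9 +/+ and 92.9% ± 0.89 in Klf9 f/f (SD, n = 3 each, exact two-sided permutation p = 0.9).

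**Figure D4:**
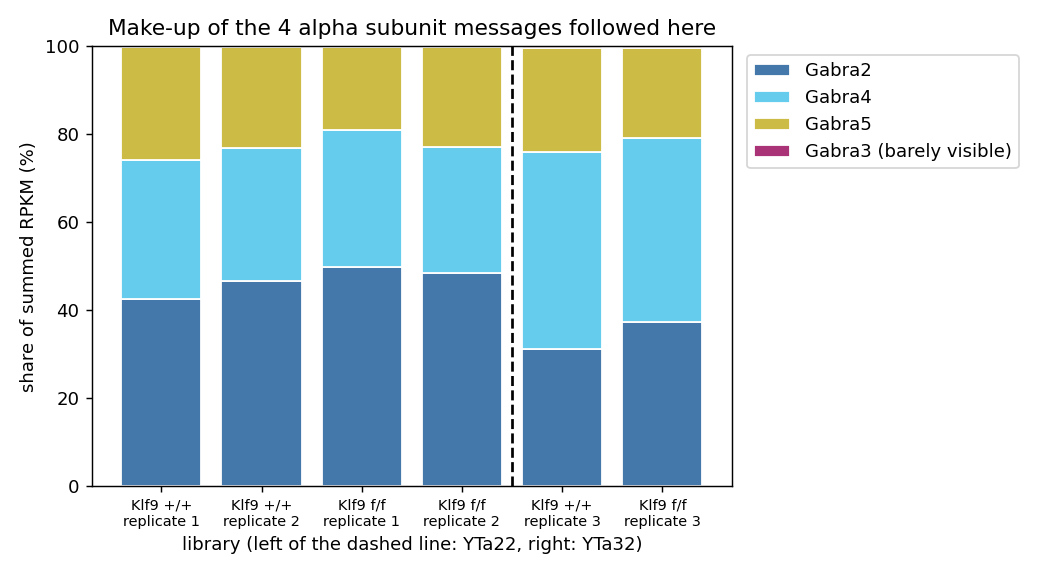
Share of each alpha subunit in the summed RPKM of Gabra2, Gabra3, Gabra4 and Gabra5, with a stacked bar per sample and the library series separated by the dashed line. Gabra2 takes 42.6 to 49.8% in the YTa22 samples and 31.3 to 37.3% in the YTa32 samples, and Gabra3 takes at most 0.501%.

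Within the chromosome 5 cluster, Gabrg1 and Gabra2, at one end of it, were the members called higher, while Gabra4 and Gabrb1, at the other end, had log2 fold changes of 0.11 and 0.22 that did not pass. Over the 6 samples, centred within series, Gabra2 followed Gabrg1 with a Pearson's r of 0.908, Gabrb1 with 0.798 and Gabra4 with 0.715, but it also followed Gabrb2 on another chromosome with 0.758. These correlations rest on 6 samples that share their library composition and are given as descriptions.

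**Figure D5:**
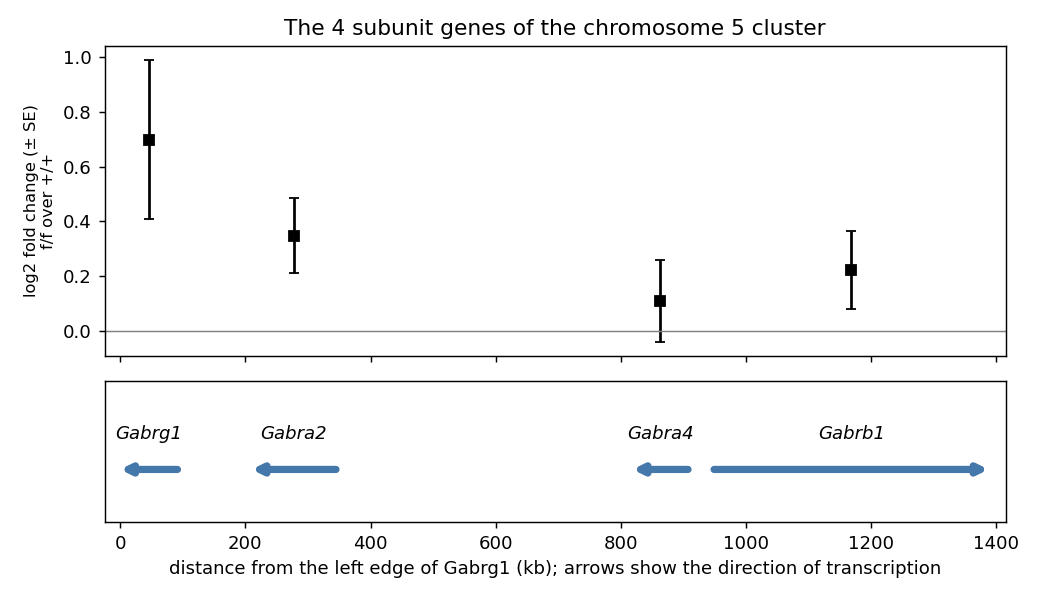
Genotype log2 fold change (± SE) of the 4 subunit genes of chromosome 5 in their genomic order, against distance in kb from the outer edge of Gabrg1, with arrows for the direction of transcription. The fold changes are 0.70 for Gabrg1, 0.35 for Gabra2, 0.11 for Gabra4 and 0.22 for Gabrb1.

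The genes whose centred log2 CPM was most like that of Gabra2, among 10382 genes with a mean of at least 10 CPM, were Lrtm2 (Pearson's r over 6 samples 0.9998), Lonp1 (0.9966) and Ncoa1 (0.9945). For Gabrg1 they were Dner, a Notch ligand of neurons (0.9985), Phka1, a subunit of phosphorylase kinase (0.9983), and Zcchc24 (0.9978). Dner was at 25.0, 29.3 and 41.6 CPM in Klf9 +/+, against 57.2, 27.6 and 55.0 CPM in Klf9 f/f, high in the same Klf9 f/f samples as Gabrg1. These likenesses were picked as the highest of many and carry no test.

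Beyond the members, 12 further GABA-A subunit genes were looked up. Of these, 5 reached the filter and 2 had no count in any sample, and none of the 5 was called in either direction. The GABA signalling list held 32 genes for GABA-B receptors, GABA synthesis, transport and breakdown, chloride transport, and receptor anchoring and trafficking, all of which were tested. In it 1 gene was called higher and 1 lower, beside 1.82% and 2.5% of all genes, so the list's count of calls was near the background. The log2 fold change was above 0 in 23 of 32, beside 50.2% of all genes, and the median was 0.08, against 0.000835 over all genes.

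The gene called higher was Hap1, which takes part in the return of internalised GABA-A receptors to the membrane. It stood at 87.7, 80.2 and 140.2 CPM in Klf9 +/+, against 136.8, 100.5 and 160.4 CPM in Klf9 f/f, with every Klf9 f/f sample above every Klf9 +/+ sample of its series, as in 7.78% of all genes. Hap1 had a log2 fold change of 0.40 (SE 0.15, unadjusted p = 0.0299, adjusted p = 1.00 in edgeR's quasi-likelihood test). Without Klf9 f/f replicate 1 its log2 fold change was 0.23 (unadjusted p = 0.109), and with the astrocyte and radial glia covariate it was 0.19 (unadjusted p = 0.378).

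The gene called lower was Slc12a2 (NKCC1), the importer that raises chloride in the cell and thereby makes GABA depolarising in immature neurons. It stood at 41.6, 42.4 and 81.0 CPM in Klf9 +/+, against 36.9, 31.6 and 60.3 CPM in Klf9 f/f, below Klf9 +/+ in each series, as in 5.53% of all genes. Slc12a2 had a log2 fold change of -0.34 (SE 0.13, unadjusted p = 0.0271, adjusted p = 1.00 in edgeR's quasi-likelihood test). Leaving out Klf9 f/f replicate 2 or 3 or Klf9 +/+ replicate 2 or 3 ended the call, with log2 fold changes of -0.34 to -0.29. Choroid plexus cells also express this transporter, and the 6 choroid plexus markers were lower in Klf9 f/f as well. With those markers as a covariate the log2 fold change of Slc12a2 was -0.26 (unadjusted p = 0.384), and its SE was 0.285 in place of 0.13. Whether choroid plexus content had a part in the lower Slc12a2 level was not tested.

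Slc12a5 (KCC2), the chloride exporter of mature neurons, had means of 36.3 ± 12.8 and 42.9 ± 6.7 CPM in the Klf9 +/+ and Klf9 f/f samples (SD, n = 3 each) and was not called. Per length, the highest of the list were Dbi, the precursor of peptides that bind the benzodiazepine site, at a mean of 1857 RPKM, and Gabarap, a trafficking protein that binds gamma subunits, at 206.6 RPKM. Neither was called, with log2 fold changes of 0.07 for Dbi (SE 0.20) and -0.07 for Gabarap (SE 0.14). Dbi is also abundant in many other cells, and its log2 fold change was -0.73 with the choroid plexus covariate (unadjusted p = 0.0414). Slc12a5 was named for its role after its values were seen.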

How the data were processed

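Ribosome-bound mRNA of 6 samples was analysed from per-gene counts. By the study's methods, the authors mapped 50 bp reads to mm9 with STAR, ran HTSeq 0.6.0 in its unstranded mode, and deposited raw whole-number counts for each gene. The version of STAR is not given in the sources used here. The 5 HTSeq summary lines, 16.4 to 26.6% of records, were left out. GENCODE M1 named 37205 of 37620 genes.

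A gene entered the tests if any sample exceeded 1 CPM (15056 genes). The quasi-likelihood F-test of edgeR 4.0.16 (R 4.3.3; TMM scaling) was fitted with genotype and library series as terms. The fit had 3 residual degrees of freedom. The call of 1.2-fold and unadjusted p under 0.05 follows the study's methods, and p-values were adjusted over all genes tested by the Benjamini-Hochberg method. Log2 CPM used a prior count of 2. Log2 fold changes set Klf9 f/f against Klf9 +/+. Within a series, plain differences of log2 CPM are given. Samples are pools of animals, and p-values measure the spread between these pools. No 2 samples held identical counts.

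All 7 members, Klf9, genes of the GABA signalling list that were called or were the 2 highest per length, and the 3 genes most like Gabra2 and Gabrg1 (the members for which the study gives a functional term) were named by rule. Members and lists were chosen with earlier results of these data known. The further subunits are given as counts only, and single values for them are not reported here. Alternatives were DESeq2 1.42.0, upper-quartile normalization, the likelihood-ratio test, other filters, no series term, YTa22 alone, marker covariates and each sample left out, and the choroid plexus covariate was chosen after seeing the data. The tests were first tested on simulated data. Figures used matplotlib 3.10.9 under Python 3.11.15.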

Additional observations from a re-analysis of the deposited data

How the results depend on the processing

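With 3 samples a genotype, the calls of Gabra2 and Gabrg1 rest on small margins, and each kept its direction under all 16 alternatives run. The number of members called higher was 0 with no series term, with YTa22 alone and with the astrocyte and radial glia, pan-neuron or choroid plexus covariate, and 0 to 2 with each sample left out. The log2 fold changes of Gabra2 and Gabrg1 were then 0.34 and 0.67 with no series term, 0.31 and 0.78 with YTa22 alone, 0.32 and 0.58 with the pan-neuron, 0.35 and 1.12 with the choroid plexus and 0.17 and 0.04 with the astrocyte and radial glia covariate. DESeq2, the likelihood-ratio test, upper-quartile normalization and both other filters gave 2. No paired analysis was possible because the labels carry no replicate numbers, and the running numbers used here pair no samples. Gabra3 was counted only 20 to 49 times a sample. The causes of the changes below were not tested.

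Over all genes, the calls higher and lower numbered 274 and 376 as reported, 513 and 926 with no filter beyond 1 count, 50 and 163 with no series term, 163 and 202 with YTa22 alone, and 138 and 659 with the astrocyte and radial glia covariate. Calls lower were 684 with the pan-neuron and 623 with the choroid plexus covariate. With each sample left out, calls higher ranged from 130 to 493 and calls lower from 209 to 719. The GABA signalling list had 2 genes called higher with no filter and with the choroid plexus covariate, 0 with no series term and with the astrocyte and radial glia or pan-neuron covariate, and 0 to 3 with each sample left out. Its genes called lower were 0 with no series term and with YTa22 alone, 2 with the astrocyte and radial glia covariate, and 0 to 2 with each sample left out. The log2 fold change of Klf9 was -0.69 and no longer called with the choroid plexus covariate.

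Members whose small fold changes turned sign were Gabra3 (0.00773 with no series term, 0.47 with the astrocyte and radial glia, 0.23 with the pan-neuron and 1.16 with the choroid plexus covariate, and -0.26 to 0.36 with each sample left out), Gabra4 (-0.14 with the astrocyte and radial glia and -0.0534 with the choroid plexus covariate, and -0.03 to 0.22 with each sample left out), Gabra5 (-0.15 to 0.0267 with each sample left out) and Gabrb1 (-0.14 with the choroid plexus covariate). Outside the members, the sign turned for Dbi (-0.0637 with the astrocyte and radial glia covariate, -0.731 with the choroid plexus covariate, and -0.106 to 0.31 with each sample left out) and Gabarap (0.0529 with the astrocyte and radial glia covariate, and -0.146 to 0.0306 with each sample left out). Gabrb1 was called higher without Klf9 +/+ replicate 1 (0.34, unadjusted p = 0.0483). The difference between the series in the fold change of Gabra5 was -0.00613 under upper-quartile normalization and 0.03 as fitted.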
